A study of Mus musculus with 15 samples.

Results

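The MHC class I pathway and the immunoproteasome were followed here through 10 genes in the podocyte fraction of the mouse kidney: the classical heavy chains H2-K1 and H2-D1, the light chain B2m, the peptide transporter Tap1 and Tap2, the loading factor Tapbp, the transactivator Nlrc5, and the catalytic immunosubunits Psmb8, Psmb9 and Psmb10. They were chosen for their role in the pathway, with earlier results of these data known. All 10 were found by symbol among the 46078 genes of the count table. MHC class I molecules carry peptides of cytosolic proteins to the surface of nearly every nucleated cell, where CD8+ T cells read them. The peptides are cut by the proteasome, whose 3 standard catalytic subunits are replaced by Psmb8, Psmb9 and Psmb10 under interferon γ, pumped into the endoplasmic reticulum by the Tap1 and Tap2 transporter, and loaded with the help of tapasin, the product of Tapbp. Nlrc5 is the factor that switches on the genes of the pathway, and leukocytes carry far more class I than most resident kidney cells.

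The fraction came from kidney cortex digested to single cells and held on magnetic columns by antibodies to nephrin, a protein of the podocyte slit diaphragm. Uninjected male C57BL/6J mice aged 4 months (young) were set beside aged male C57BL/6J mice, labelled 21 months. By the paper, that was their age when they were randomized to injection. They then received intraperitoneal injections once a week, at 12 mg/kg over 8 weeks. The antibody was the InVivoMAb antibody RMP1-14 to mouse PD-1, a checkpoint receptor of T cells (aPD1ab), or the isotype control IgG2A antibody 2A3 (IgG2a). The titles of the aPD1ab samples state 47 days. Young mice had no injection, so age and injection cannot be told apart between young and aged groups. Below, the words with age name the comparison of aged IgG2a-injected with uninjected young mice, and not an effect of age alone. Sequencing was of bulk mRNA, and 5 mice are labelled in each group.

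The columns of the table carry numbers that no sample title holds, so 13 of the 15 columns were tied to a group through the numbers printed on the principal component plot of the study, which gave 5 young, 4 aged IgG2a and 4 aged aPD1ab libraries. No column could be tied to 1 animal, and libraries are numbered by their column numbers within a group. The libraries held 21962193 to 27685122 counted reads in the young group, 20500755 to 32717100 in the aged IgG2a group and 19912969 to 31493051 in the aged aPD1ab group. Each member had between 433 and 48069 reads in every library, so counting error was small beside the spread between libraries.

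Aged IgG2a library 1 stood apart from the other 3 of its group. It was below all of them for 10 of the 10 members and within the range of the young libraries for 9 of the 10. The summed level of the 10 members was 2249 CPM (a normalised read count, relative to the library total after scaling by the TMM method) in that library and 3871 to 6056 in the other 3. Macrophage markers moved with it, at 3028 CPM in library 1 and 7070.4 to 8959.5 CPM in the others, summed over 10 genes. Proximal tubule markers moved the other way, at 3214 CPM in library 1 and 689 to 1035 CPM in the others, summed over 7 genes. Member values and list counts that rest on this group are therefore also given without that library. It was singled out by these same member values, after they were seen. Leaving out a library that is low for the members raises the mean of its group. Counts and p-values without it are therefore descriptive wherever they are given below, also for single genes.

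The label of the fraction was checked against podocyte markers. Nphs1, the gene of nephrin, was at 61.4, 57.7, 43.4, 79.6 and 81.4 CPM in young libraries 1 to 5, at 19.8, 4.57, 7.06 and 4.03 CPM in aged IgG2a libraries 1 to 4, and at 39.1, 7.61, 18.7 and 43.1 CPM in aged aPD1ab libraries 1 to 4. It was detected in every library but lowest in the aged IgG2a group. There, 8 of 10 podocyte markers were lower than in young mice by edgeR at an adjusted p under 0.05 and 1 was higher. Over all genes tested, 8.38% were lower and 9.05% higher at that level. Podocyte markers summed to 899 to 1450 CPM in young, 534 to 726 in aged IgG2a and 277 to 880 in aged aPD1ab libraries. Loop and distal tubule markers (6 genes) summed to 6545 to 9248, 5818 to 13735 and 5804 to 10223 CPM in the same order. RNA of other kidney cells was thus present in every library. Aged aPD1ab library 2 had the lowest podocyte sum of its group, at 277 CPM beside 568 to 880 CPM. Its proximal tubule markers summed to 10062 CPM, beside 3221 to 5967 CPM in the other aPD1ab libraries. Its macrophage markers summed to 2258 CPM, beside 3620 to 5026 CPM. Its loop and distal tubule sum, 6258 CPM, was within the range of the others. The lists hold different genes, so their sums do not give shares of cells. In bulk libraries such as these, fewer cells of a type and less RNA per cell cannot be told apart.

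Promoter sequence shows what the genes of the class I molecule share. RefSeq promoter windows on GRCm38.p6 (250 bases before to 50 after the listed start) were found for 8 of the 10 members, all but Tap2 and Nlrc5. The windows of H2-K1, H2-D1 and B2m hold the core of the cAMP response element, TGACG, with ATTGG, the reverse of the CCAAT box, starting 25 bases on (the search allowed 20 to 30, on both strands). As background, MHC promoters are known for a row of boxes in which an X2 box of the first kind precedes a Y box of the latter kind, and at which NLRC5 acts with the RFX complex. This pair was chosen after the windows had been read, and a match is a description of letters and not of binding. The pair was present in 0.463% of the 26994 promoters in the table. The windows of Tap1, Tapbp, Psmb8, Psmb9 and Psmb10 do not hold it. The stretch from the first to the last letter of the pair is 30 bases long in each of the 3 genes, and its capitals mark the TGACG and the ATTGG:
H2-K1, chr17:34000359-34000388, minus strand: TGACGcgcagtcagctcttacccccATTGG
H2-D1, chr17:35262993-35263022, plus strand: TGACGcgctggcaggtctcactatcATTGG
B2m, chr2:122147609-122147638, plus strand: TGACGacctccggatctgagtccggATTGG

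Of these 30 bases, 23 are identical between H2-K1 and H2-D1, 13 between H2-K1 and B2m, and 12 between H2-D1 and B2m. The pair starts 41 bases before the listed start of H2-K1, 101 before that of H2-D1 and 78 before that of B2m. The H2-D1 stretch lies inside the first exon of a longer GENCODE M21 transcript of that gene. Wider stretches of 120 bases, which lie upstream of the GENCODE gene, are shown for 1 heavy chain and the light chain because they also hold the interferon and κB motifs, with every match in capitals:
H2-K1, chr17:34000349-34000468, minus strand: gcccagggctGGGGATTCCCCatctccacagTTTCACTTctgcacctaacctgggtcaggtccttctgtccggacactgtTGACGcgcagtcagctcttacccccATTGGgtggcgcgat
B2m, chr2:122147529-122147648, plus strand: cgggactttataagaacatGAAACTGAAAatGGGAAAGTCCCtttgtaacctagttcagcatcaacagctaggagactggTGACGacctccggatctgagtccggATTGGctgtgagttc

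Capitals in these stretches mark the κB site GGGNNNNNCC, found in 50.4% of all promoters on either strand, the interferon regulatory factor core AANNGAAA, found in 24.1%, and the interferon-stimulated response element GAAANNGAAA, found in 3.47% and, of the 8 windows, only in that of B2m, where it overlaps the shorter core. TGACG alone was present in 21.0% of promoters and CCAAT in 37.9%. The gamma-activated site TTCNNNGAA, present in 8.46%, matched once in the window of Psmb8 and in none of the other 7. Tap1 and Psmb9 start back to back, with 225 bases between their listed starts on chromosome 17.

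The first question was whether the pathway differed between aged IgG2a-injected and young mice. All 10 members had a higher mean in the aged IgG2a group (9 with library totals alone in place of TMM scaling, where Nlrc5 turned), and 5 of the 10 rose at an adjusted p under 0.05 (edgeR quasi-likelihood test, Benjamini-Hochberg adjustment): H2-K1, H2-D1, B2m, Psmb8 and Psmb10. Over all 15953 genes tested, 9.05% were called higher. The median log2 fold change of the 10 members was 0.76, beside 0.038 over all genes tested. At an unadjusted p under 0.05, 8 members were higher, beside 20% of all genes. The groups overlapped for every member, and 4.88% of all genes were higher without overlap. Without that library, 9 of the 10 members were called higher, beside 22.1% of all genes, and 8 did not overlap, beside 18.4%. The 5 calls were close to the threshold, and none of the 10 members was called when any 1 of the other 8 libraries was left out (young libraries 1 to 5 and aged IgG2a libraries 2, 3 and 4), nor with library totals alone, under which 2.07% of all genes were called higher and which moved the median of all genes by -0.42 on the log2 scale in this comparison. Other fits gave 6 members with DESeq2, beside 12% of all genes, 5 with a single edgeR fit of the 3 groups, beside 6.36%, 10 with limma voom and sample quality weights, beside 24.4%, and 0 with no filter on low counts, beside 3.18%.

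**Figure D1:**
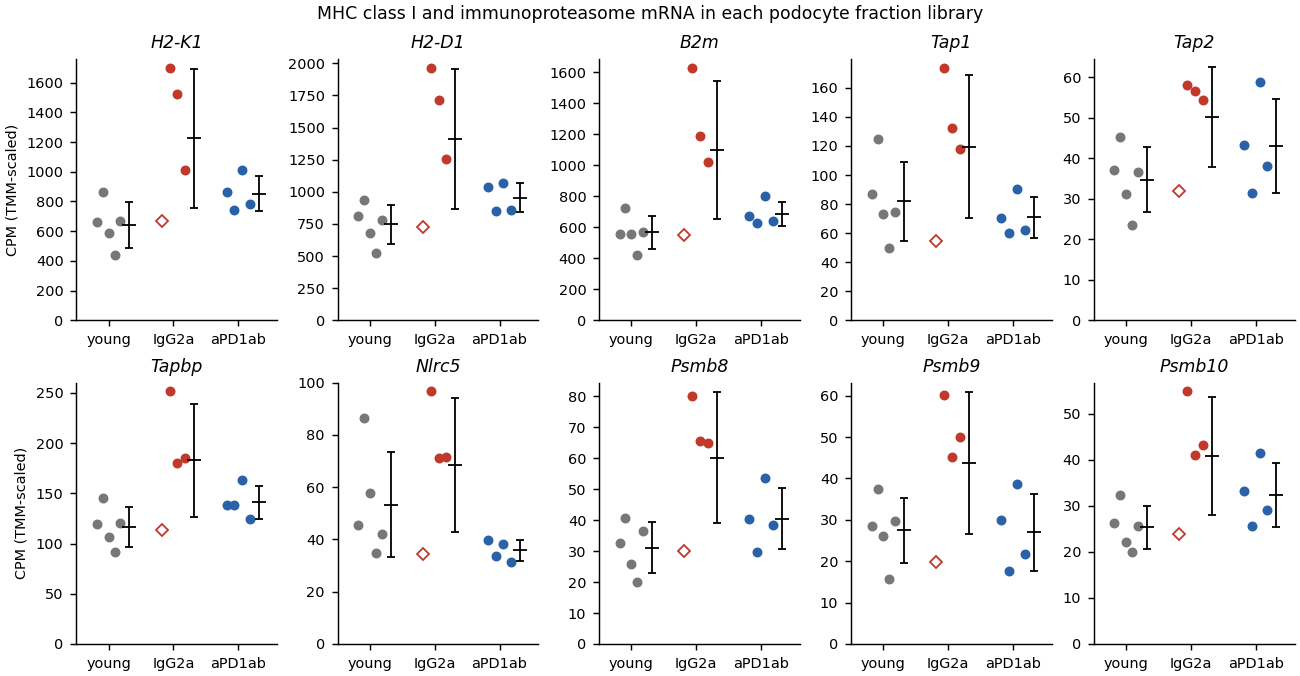
Level of each of the 10 members in every library, in TMM-scaled CPM on linear axes that start at 0, for young (grey, n = 5), aged IgG2a (red, n = 4) and aged aPD1ab mice (blue, n = 4). Points are libraries, the open diamond is aged IgG2a library 1, and the black bar is the mean ± SD. Aged IgG2a libraries 2 to 4 lie above all young libraries for 8 of the 10 members, while library 1 is within the young range for 9.

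The 2nd question was whether aPD1ab shifted the pathway in aged mice. All 10 members had a lower mean with aPD1ab than with IgG2a (9 with library totals alone, where Tap2 turned), with a median log2 fold change of -0.60 beside -0.011 over all genes, but 0 of the 10 had an adjusted p under 0.05 in edgeR, as did 0% of all 15530 genes tested, of which 4341 had an unadjusted p under 0.05. The groups overlapped for all 10 members, while 4.91% of all genes were lower without overlap. Tap1 and Nlrc5 had an unadjusted p under 0.05, in a comparison where 12.2% of all genes were lower at that level. DESeq2 and the fit of the 3 groups each called 1 member lower, Nlrc5, beside 5.59% and 6.14% of all genes. Limma voom called 10 lower, beside 18.9% of all genes. Without aged IgG2a library 1, edgeR called 9 of the 10 lower, all but Tap2, beside 13.2% of all genes, and 8 did not overlap, beside 17.9% of all genes. Leaving out any other library gave 0 calls.

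The 3rd comparison, of aged aPD1ab-injected with young mice, gave 0 of 10 members called in either direction by edgeR or any alternative run, beside 22.4% of all genes. Of the 15986 genes tested, 12.4% were called higher and 9.97% lower. The means of 7 members were above those of young mice and the means of 3, Tap1, Nlrc5 and Psmb9, were below, and 1 member, Nlrc5, had an unadjusted p under 0.05. The 3 comparisons share libraries in pairs, since each group serves in 2 of them, so their values are given side by side and not as independent results.

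**Figure D2:**
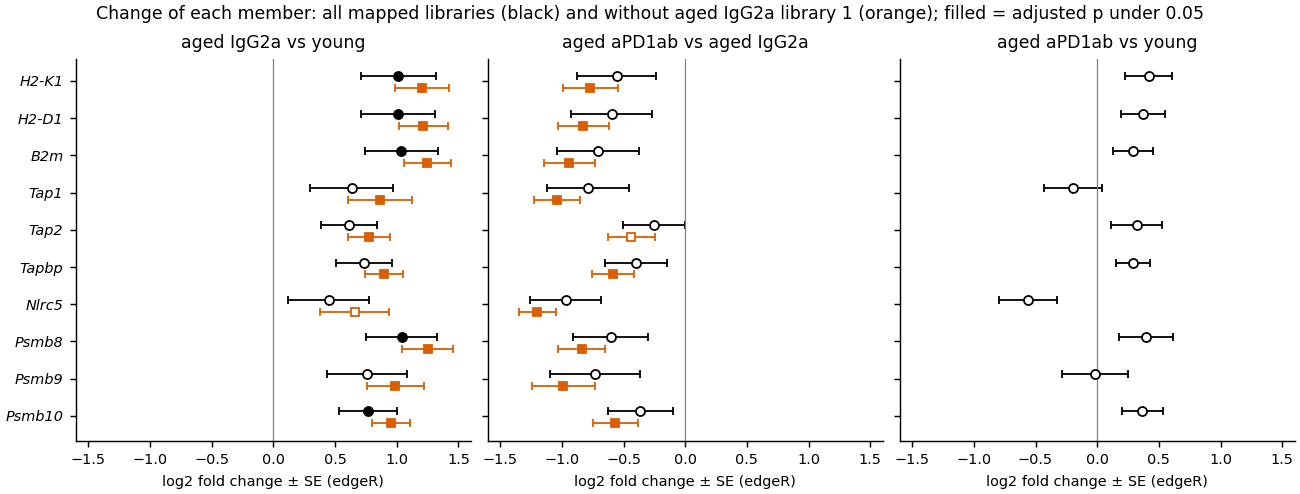
Log2 fold change ± SE of each member from edgeR in the 3 comparisons, first-named group minus second. Black circles use all mapped libraries and orange squares leave out aged IgG2a library 1, with filled symbols at an adjusted p under 0.05. Values are above 0 for all 10 members in aged IgG2a against young mice and below 0 for all 10 with aPD1ab against IgG2a. With library totals alone Nlrc5 turns in the former and Tap2 in the latter. For aPD1ab against young the values are between -0.56 and 0.42.

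H2-K1 (ENSMUSG00000061232, chromosome 17, 33996017 to 34000347, minus strand) encodes the heavy chain H-2K, which holds the peptide groove. It was at 659, 864, 587, 437 and 670.1 CPM in young libraries 1 to 5, at 668.7, 1695, 1521 and 1010.4 CPM in aged IgG2a libraries 1 to 4 and at 865, 743, 1009.8 and 785 CPM in aged aPD1ab libraries 1 to 4. Aged IgG2a libraries 2 to 4 were above every young library and library 1 was among them, while the aPD1ab libraries overlapped both groups. H2-K1 rose with age by 1.01 on the log2 scale (SE 0.30, edgeR adjusted p = 0.0453). The value was -0.56 for aPD1ab against IgG2a (SE 0.32, edgeR adjusted p = 0.277) and 0.42 for aPD1ab against young (edgeR adjusted p = 0.143). Without aged IgG2a library 1, the first 2 were 1.20 (edgeR adjusted p = 0.00134) and -0.77 (edgeR adjusted p = 0.0335).

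H2-D1 (ENSMUSG00000073411, chromosome 17, 35262730 to 35267499, plus strand) encodes the other classical heavy chain of this strain, H-2D. Young libraries 1 to 5 held 809, 935, 679.6, 525 and 779 CPM, aged IgG2a libraries 1 to 4 held 723, 1961, 1710.5 and 1255 CPM and aged aPD1ab libraries 1 to 4 held 1035, 853, 1068 and 859 CPM. The pattern over libraries was that of H2-K1, with aged IgG2a library 1 below 3 of the 5 young libraries. H2-D1 rose with age by 1.01 (log2, SE 0.30, edgeR adjusted p = 0.0454), and the value was -0.60 for aPD1ab against IgG2a (edgeR adjusted p = 0.255) and 0.37 against young (edgeR adjusted p = 0.158). Leaving out aged IgG2a library 1, H2-D1 was at 1.21 with age and -0.83 between the aged groups (edgeR adjusted p = 0.000659 and 0.0211). The heavy chain genes are near copies of each other, and 4.64% of the 100-base windows of the H2-D1 transcript also occur in 1 or more of 9 other genes. For H2-K1 that share was 0%, so reads could have been divided among genes for H2-D1 more than for H2-K1.

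B2m (ENSMUSG00000060802, chromosome 2, 122147686 to 122153083, plus strand) encodes β2-microglobulin, the light chain without which heavy chains do not reach the surface. It was at 558, 724, 559.9, 424 and 568 CPM in the 5 young libraries, 549.6, 1624, 1189.9 and 1019 CPM in the 4 aged IgG2a libraries and 674, 626, 799.9 and 643 CPM in the 4 aged aPD1ab libraries. Its 3 highest levels were those of aged IgG2a libraries 2 to 4, and library 1 of that group was below 4 of the 5 young libraries. The aPD1ab libraries overlapped the upper end of the young range. B2m rose with age by 1.04 (log2, SE 0.30, edgeR adjusted p = 0.0406), the value was -0.71 for aPD1ab against IgG2a (edgeR adjusted p = 0.197), and it was 0.29 for aPD1ab against young (edgeR adjusted p = 0.226). With that library left out, B2m was at 1.25 with age and -0.94 between the aged groups (edgeR adjusted p = 0.000428 and 0.0145). The gene lies within Patl2 on the opposite strand, and the strand setting of the counting was not given in the sources used here.

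The transporter that carries peptides into the endoplasmic reticulum is a pair of Tap1 and Tap2, which lie side by side on the plus strand of chromosome 17 (34187553 to 34197225 and 34203527 to 34216321). Tap1 was at 86.9, 125, 73.5, 49.8 and 74.6 CPM in the young libraries, 54.5, 174, 132 and 118 CPM in the aged IgG2a libraries and 70.8, 60.2, 90.5 and 61.9 CPM in the aged aPD1ab libraries. Young library 2 lay between aged IgG2a libraries 3 and 4, and aged IgG2a library 1 was below every library of the aPD1ab group. The log2 fold change of Tap1 was 0.63 with age (SE 0.34, edgeR adjusted p = 0.204), -0.79 for aPD1ab against IgG2a (SE 0.33, edgeR adjusted p = 0.164) and -0.20 for aPD1ab against young (edgeR adjusted p = 0.577). Without aged IgG2a library 1 the values were 0.86 with age (edgeR adjusted p = 0.0240) and -1.04 for aPD1ab against IgG2a (edgeR adjusted p = 0.00879).

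Tap2 was at 37.0, 45.2, 31.1, 23.6 and 36.6 CPM in the young, 31.8, 57.9, 56.5 and 54.4 CPM in the aged IgG2a and 43.3, 31.5, 58.8 and 38.1 CPM in the aged aPD1ab libraries. Aged aPD1ab library 3 held the highest Tap2 of all 13 libraries. Its log2 fold change was 0.61 with age (edgeR adjusted p = 0.0835) and -0.26 for aPD1ab against IgG2a (edgeR adjusted p = 0.529), the smallest difference of the 10 members between the aged groups. The latter turned to 0.027 with library totals alone. When aged IgG2a library 1 was left out, Tap2 was at 0.77 with age and -0.44 between the aged groups (edgeR adjusted p = 0.00435 and 0.117). Against young mice the value with aPD1ab was 0.32 (edgeR adjusted p = 0.293).

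Tapbp (ENSMUSG00000024308, chromosome 17, 33915899 to 33929292, plus strand) encodes tapasin, which bridges the transporter and the empty heavy chain. It was at 119, 145, 107, 91.5 and 121 CPM in young libraries 1 to 5, 114, 252, 180.1 and 185 CPM in aged IgG2a libraries 1 to 4 and 139, 139, 164 and 124 CPM in aged aPD1ab libraries 1 to 4. With aPD1ab its levels overlapped both other groups. Young library 2 lay above aged aPD1ab libraries 1, 2 and 4, and aged IgG2a library 1 lay below every aPD1ab library. The log2 fold change was 0.73 with age (SE 0.23, edgeR adjusted p = 0.0514), -0.40 for aPD1ab against IgG2a (edgeR adjusted p = 0.310) and 0.29 for aPD1ab against young (edgeR adjusted p = 0.162). With aged IgG2a library 1 left out, Tapbp was at 0.89 with age and -0.59 between the aged groups (edgeR adjusted p = 0.00102 and 0.0332). Tapbp overlaps Zbtb22 on the same strand by 3422 bases.

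Nlrc5 (ENSMUSG00000074151, chromosome 8, 94434356 to 94527272, plus strand) is the transactivator. It was at 45.5, 86.4, 57.7, 34.8 and 42.3 CPM in young libraries 1 to 5, 34.6, 96.7, 71.3 and 71.7 CPM in aged IgG2a libraries 1 to 4 and 39.9, 33.5, 38.4 and 31.5 CPM in aged aPD1ab libraries 1 to 4. The aPD1ab libraries lay close together at the lower end of the young range and overlapped it, and young library 2 was above 3 of the 4 aged IgG2a libraries. The log2 fold change was 0.45 with age (SE 0.33, edgeR adjusted p = 0.349), the smallest of the 10 members, and -0.024 with library totals alone. Between the aged groups it was -0.97 with aPD1ab, the lowest of the 10 (SE 0.29, edgeR adjusted p = 0.110). DESeq2 gave -0.98 (DESeq2 adjusted p = 0.0228), and edgeR without aged IgG2a library 1 gave -1.20 (edgeR adjusted p = 0.00640), within a range of 0.00267 to 0.285 for the adjusted p over the edgeR, DESeq2 and limma alternatives. With age the value without that library was 0.66 (edgeR adjusted p = 0.0840). Against young mice, Nlrc5 stood at -0.56 with aPD1ab (SE 0.24, edgeR adjusted p = 0.114), while both heavy chains and B2m were above 0 in the same comparison. The difference between Nlrc5 and the other members was not tested.

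The catalytic immunosubunits are Psmb8 (ENSMUSG00000024338, chromosome 17, 34197721 to 34201454, plus strand), Psmb9 (ENSMUSG00000096727, chromosome 17, 34181987 to 34187764, minus strand) and Psmb10 (ENSMUSG00000031897, chromosome 8, 105935735 to 105938444, minus strand). Psmb8, which takes the place of Psmb5, was at 32.6, 40.6, 25.9, 20.1 and 36.4 CPM in the young, 30.2, 80.1, 65.5 and 65.0 CPM in the aged IgG2a and 40.5, 29.6, 53.5 and 38.5 CPM in the aged aPD1ab libraries. Aged IgG2a libraries 2 to 4 were above all other libraries, and library 1 was below 3 of the 5 young ones. Psmb8 rose with age by 1.04 (log2, SE 0.29, edgeR adjusted p = 0.0377), the lowest adjusted p of the 10 members, and the value was -0.61 for aPD1ab against IgG2a (edgeR adjusted p = 0.226). Leaving out aged IgG2a library 1, Psmb8 was at 1.25 with age and -0.84 between the aged groups (edgeR adjusted p = 0.000963 and 0.0151).

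Psmb9, which takes the place of Psmb6, was at 28.5, 37.5, 26.0, 15.8 and 29.8 CPM in the young, 19.8, 60.04, 45.2 and 49.96 CPM in the aged IgG2a and 30.0, 17.6, 38.7 and 21.6 CPM in the aged aPD1ab libraries. Both the young and the aPD1ab libraries spread over more than a 2-fold range. The log2 fold change was 0.76 with age (edgeR adjusted p = 0.123), -0.73 for aPD1ab against IgG2a (edgeR adjusted p = 0.218) and -0.017 for aPD1ab against young (edgeR adjusted p = 0.970). When aged IgG2a library 1 was left out, Psmb9 was at 0.99 with age and -0.99 between the aged groups (edgeR adjusted p = 0.00755 and 0.0232). Psmb9 shares 212 bases with Tap1 on the opposite strand.

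Psmb10, which takes the place of Psmb7, was at 26.2, 32.4, 22.2, 20.05 and 25.7 CPM in the young, 23.8, 55.0, 41.0 and 43.2 CPM in the aged IgG2a and 33.3, 25.5, 41.5 and 29.1 CPM in the aged aPD1ab libraries. Aged aPD1ab library 3 reached the level of aged IgG2a library 3. Psmb10 rose with age by 0.77 (log2, SE 0.23, edgeR adjusted p = 0.0486), and the value was -0.36 for aPD1ab against IgG2a (edgeR adjusted p = 0.383). With aged IgG2a library 1 left out, Psmb10 was at 0.95 with age and -0.57 between the aged groups (edgeR adjusted p = 0.000687 and 0.0471). Against young mice with aPD1ab, Psmb8 was at 0.39 and Psmb10 at 0.37 on the log2 scale (edgeR adjusted p = 0.214 and 0.141).

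Since each immunosubunit replaces 1 standard subunit, the share of the immunosubunit in its pair was computed within each library from reads per kilobase of merged exons, which does not depend on library scaling. It is a share of mRNA over all cells of the fraction, and not of protein or of assembled proteasomes. The part of the cell mix in it was not tested. The level of a share depends on the length used, and the differences between groups in log2 ratio do not. Psmb8 made up 19.904, 24.3, 15.0, 13.4 and 21.4% of the Psmb8 and Psmb5 pair in young libraries 1 to 5, 15.96, 42.5, 41.5 and 37.1% in aged IgG2a libraries 1 to 4 and 19.7, 11.1, 20.7 and 16.7% in aged aPD1ab libraries 1 to 4. Psmb9 made up 19.2, 24.01, 17.4, 11.3 and 20.1% of its pair with Psmb6 in the young, 11.2, 30.3, 29.0 and 32.6% in the aged IgG2a and 15.2, 7.57, 17.3 and 10.7% in the aged aPD1ab libraries. Psmb10 made up 47.0, 53.9, 42.7, 41.7 and 45.8% of its pair with Psmb7 in the young, 41.2, 68.4, 62.6 and 66.2% in the aged IgG2a and 49.4, 37.8, 53.6 and 44.6% in the aged aPD1ab libraries. In all 3 pairs, aged IgG2a libraries 2 to 4 held the highest shares of the 13 libraries, and aged IgG2a library 1 lay among the young and aPD1ab libraries. With the length of the longest coding transcript in place of merged exons, a choice made after seeing the data, the mean share of Psmb8 was 32.3 ± 6.55% in young, 50.9 ± 15.2% in aged IgG2a and 29.7 ± 6.56% in aged aPD1ab mice, that of Psmb9 was 20.6 ± 5.11, 28.5 ± 10.6 and 14.3 ± 4.89%, and that of Psmb10 was 27.6 ± 3.97, 40.3 ± 11.4 and 27.8 ± 5.41% (SD, n = 5, 4 and 4).

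**Figure D3:**
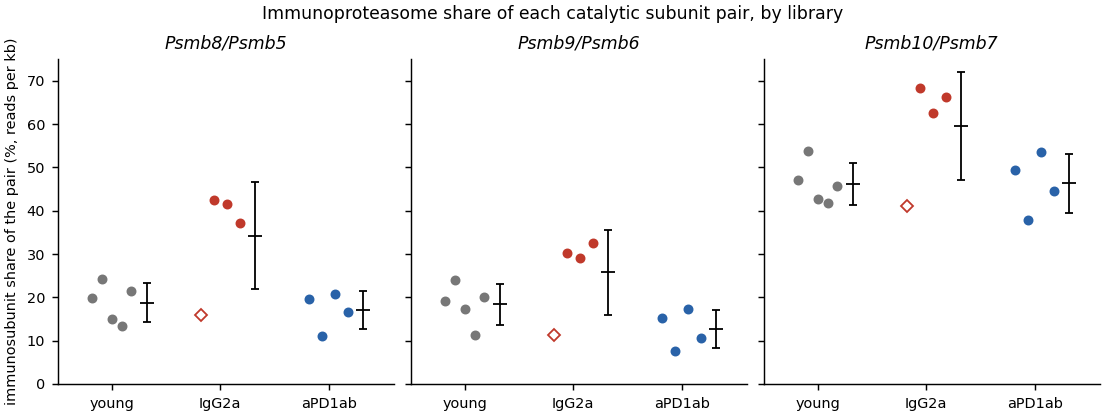
Share of the immunosubunit in each catalytic pair (percent of reads per kilobase of merged exons of the pair) by library, for young (grey), aged IgG2a (red) and aged aPD1ab mice (blue), with the mean ± SD as black bars and aged IgG2a library 1 as an open diamond. Psmb8 reaches 37.1 to 42.5% in aged IgG2a libraries 2 to 4 and at most 24.3% in any other library.

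The differences in log2 ratio did not pass an exact permutation test. With age they were 1.12 ± 0.50 (SE, exact two-sided permutation p = 0.0635) for Psmb8 over Psmb5, 0.56 ± 0.50 (exact p = 0.286) for Psmb9 over Psmb6 and 0.80 ± 0.39 (exact p = 0.0952) for Psmb10 over Psmb7. For aPD1ab against IgG2a they were -1.30, -1.22 and -0.79 in the same order (exact permutation p = 0.114, 0.0857 and 0.114). For aPD1ab against young they were -0.18, -0.66 and 0.0057 (exact permutation p = 0.571, 0.0952 and 1). The lowest p adjusted over the 9 tests was 0.171 by Benjamini-Hochberg, and the smallest exact p the designs allow is 0.0159 for 5 against 4 libraries and 0.0286 for 4 against 4. When aged IgG2a library 1 was left out, the 3 differences with age were 1.58, 1.01 and 1.16, each with an exact permutation p of 0.0357, the smallest possible for 3 against 5. With aPD1ab against IgG2a they were -1.76, -1.67 and -1.16, each with an exact permutation p of 0.0571, which is the smallest that 3 against 4 libraries can give. The other libraries of the aged IgG2a group held the highest ratios in each pair, so leaving out library 1 fixed these p-values in advance. They are descriptive and do not count as support for a difference.

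The standard catalytic subunits Psmb5, Psmb6 and Psmb7 had log2 fold changes of 0.76, 0.55 and 0.47 for aPD1ab against IgG2a, without overlap of the groups (edgeR adjusted p = 0.109, 0.110 and 0.115). Psmb5 was at 42.3, 28.8, 24.6 and 29.2 CPM in aged IgG2a libraries 1 to 4 and 43.9, 63.1, 54.6 and 51.1 CPM in aged aPD1ab libraries 1 to 4. Of the 14 standard subunits of the 20S core, all 14 had a higher mean with aPD1ab than with IgG2a, 0 were called by edgeR, 9 had an unadjusted p under 0.05, beside 15.7% of all genes, and 7 did not overlap, beside 6.61%. Other tools called more of them, with 5 by DESeq2 (8.61% of all genes), 9 by limma voom (20.9%) and 8 by the fit of 3 groups (11.4%). On leaving out aged IgG2a library 1, edgeR called 6 of the 14, beside 17.1% of all genes.

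Against young mice, 13 of the 14 standard subunits rose with aPD1ab and 14 did not overlap, where 12.4% of all genes were called higher and 11.3% were higher without overlap, while 0 of the 10 members were called. Psmb6 was 95.7 ± 10.3 CPM with aPD1ab (SD, n = 4) and 61.9 ± 1.46 CPM in young mice (SD, n = 5), a log2 difference of 0.64 (SE 0.092, edgeR adjusted p = 0.00364). Psmb5 and Psmb7 rose by 0.60 and 0.36 (edgeR adjusted p = 0.00647 and 0.0176). With library totals alone, 5 of the 14 were called, beside 5.35% of all genes. With age in IgG2a mice, 2 of the 14 rose, Psmb2 by 0.37 and Psma7 by 0.33 (edgeR adjusted p = 0.0295 and 0.0360), and with library totals alone the values turned to -0.044 and -0.080 and 0 were called. The count was also 0 or 1 when any 1 library other than aged IgG2a library 1 was left out, and without that library 2 were higher and 1 was lower. Of all genes, 9.05% rose with age, and 22.1% rose and 23.5% fell without that library. Psma6 was at 0.22 (edgeR adjusted p = 0.103), and at -0.19 with library totals alone.

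The other genes of the pathway were counted by role. The lists hold 67 genes, of which 7 were too low to be tested. With age in IgG2a mice, 6 of 15 other class I and class I-like heavy chains rose, beside 9.05% of all genes (H2-Q2, H2-Q4, H2-M2, H2-M3, Mr1 and Hfe). Without aged IgG2a library 1, 10 rose, beside 22.1% of all genes. With library totals alone 2 rose, beside 2.07%. Hfe, a class I-like regulator of iron uptake, was at 37.6 ± 2.33 CPM in young (SD, n = 5) and 66.2 ± 14.6 CPM in aged IgG2a mice (SD, n = 4), with a log2 fold change of 0.90 (SE 0.17, edgeR adjusted p = 0.0124) and no overlap. H2-M2 rose by 1.63 and H2-Q2 by 0.83 (edgeR adjusted p = 0.0264 and 0.0305), from low levels. Between the aged groups, 12 of the 15 heavy chains were below 0 with aPD1ab and 0 were called. At an unadjusted p under 0.05, 4 were lower, beside 12.2% of all genes. Without aged IgG2a library 1, 7 were called lower, beside 13.2%. Against young mice, 5 of the 15 rose with aPD1ab, among them H2-Q2 by 0.83 and Hfe by 0.36 (edgeR adjusted p = 0.0202 and 0.0330). Of all genes, 12.4% rose in that comparison.

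The general chaperones and trimming enzymes of peptide loading were mostly below 0. Of 7 such genes, 6 were below 0 with age and 0 were called (7 and 5 with library totals alone), with 3 lower at an unadjusted p under 0.05, beside 16.2% of all genes. When that first aged IgG2a library was left out, 4 of the 7 fell, beside 23.5% of all genes, and 1 rose, beside 22.1%. Calr, the chaperone calreticulin, was at 655 ± 60.5 CPM in young and 456 ± 63.7 CPM in aged IgG2a mice, with a log2 fold change of -0.45 (SE 0.15, edgeR adjusted p = 0.0557) and no overlap, where 9.45% of all genes were lower without overlap. The disulfide isomerase Pdia3 and the glucosidase Ganab were at -0.33 and -0.28 (edgeR adjusted p = 0.0903 and 0.101). With aPD1ab in aged mice, 4 of the 7 were above 0 and 0 were called. At an unadjusted p under 0.05, 1 was lower, beside 12.2% of all genes. Against young mice, 2 of the 7 fell with aPD1ab, beside 9.97% of all genes. The aminopeptidase Erap1 fell by 0.53 and the glycoprotein sensor Uggt1 by 0.39 on the log2 scale, both named after their values were seen.

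Among 4 proteasome activators, Psme1 and Psme2, the interferon-induced PA28 caps of the 20S core, rose with age by 0.77 and 0.56, though not with library totals alone (edgeR adjusted p = 0.0262 and 0.0482), while Psme4, the PA200 cap, changed by -0.43 (edgeR adjusted p = 0.0286) in a comparison where 8.38% of all genes were called lower. Between the aged groups the values were -0.33, -0.036 and 0.28 in that order (Psme2 was at 0.23 with library totals alone), and 0 of the 4 were called, also at an unadjusted p under 0.05. The counts were the same without aged IgG2a library 1, with 2 higher and 1 lower with age and 0 between the aged groups. With age, 9.05% of all genes were called higher. Without that library 22.1% were called higher and 23.5% lower. Against young mice 1 of the 4 rose with aPD1ab, Psme2 by 0.48 (edgeR adjusted p = 0.0112), where 12.4% of all genes rose.

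Of 15 upstream regulators tested, all 15 were above 0 with age (6 with library totals alone, where 0 rose) and 2 rose, the interferon γ receptor chain Ifngr2 by 1.15 and the NF-κB subunit Rela by 0.53 (edgeR adjusted p = 0.0199 and 0.0480). That is 2 of 15 beside 9.05% of all genes. Ifngr1 was at 0.70 with age (edgeR adjusted p = 0.0912) and at -0.83 for aPD1ab against IgG2a (edgeR adjusted p = 0.148). In the latter comparison 12 of the 15 were below 0, 0 were called, and 5 were lower at an unadjusted p under 0.05, beside 12.2% of all genes. Leaving out aged IgG2a library 1, 9 of the 15 rose with age, beside 22.1% of all genes, and 9 fell with aPD1ab, beside 13.2%. Against young mice 1 rose with aPD1ab (Rfxap, by 0.53) and 2 fell (Rfx5 by 0.60 and Jak2 by 0.48), where Rfx5 and Rfxap are subunits of the RFX complex named above. These 3 were singled out after their values were seen. In that comparison 12.4% of all genes rose and 9.97% fell.

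Of 5 receptors that read class I, 1 rose with age, beside 9.05% of all genes. Cd8b1, the β chain of CD8, was at 0.0796 to 0.249 CPM in young and 0.535 to 4.71 CPM in aged IgG2a mice. Its rise was 3.56 on the log2 scale (edgeR adjusted p = 0.0162) at levels of few reads. Cd8a was at 0.91 and Pirb, an inhibitory receptor of myeloid and B cells, at 1.03 (edgeR adjusted p = 0.167 and 0.0516). With aPD1ab, 5 of the 5 receptors were below 0, 0 were called and 3 had an unadjusted p under 0.05, with Pirb at -0.998 (edgeR adjusted p = 0.134). Of all genes, 12.2% were lower at that unadjusted level. On leaving out aged IgG2a library 1, 4 receptors of 6 then tested rose with age, beside 22.1% of all genes. With aPD1ab 4 of 5 then fell, beside 13.2%. Against young mice, Cd8b1 rose with aPD1ab by 2.76 (edgeR adjusted p = 0.00387), and Klrd1, an NK cell receptor chain named after its value was seen, fell by 1.37 on the log2 scale.

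**Figure D4:**
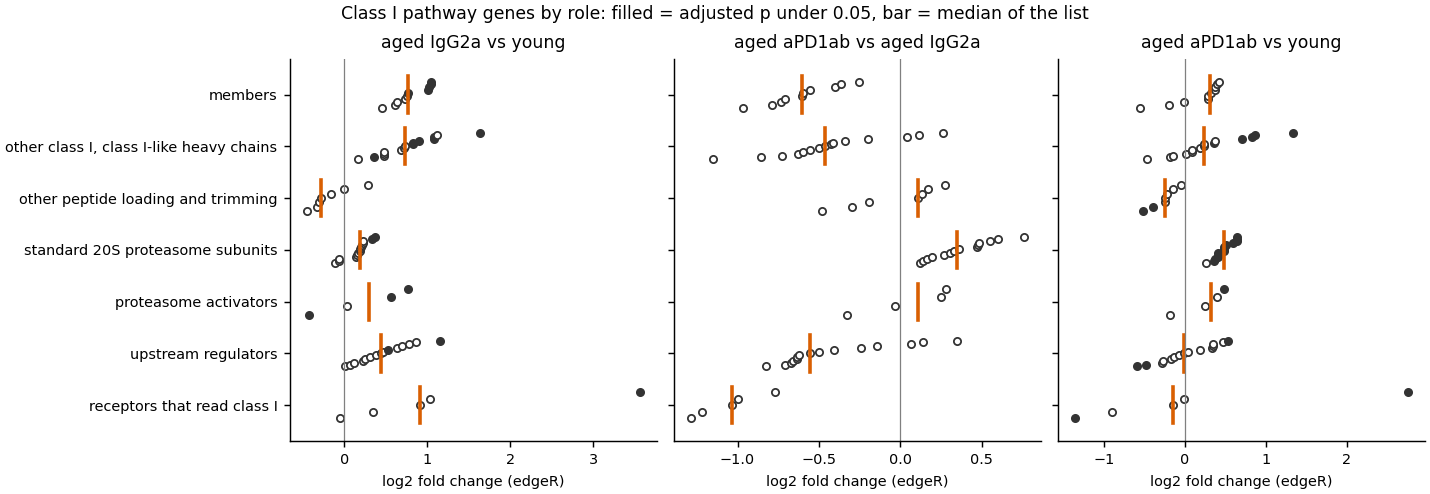
Log2 fold change from edgeR of every tested gene of the class I pathway, grouped by role (rows), in the 3 comparisons, with all mapped libraries. Filled points have an adjusted p under 0.05 and the orange bar is the median of the row. The 10 members have a median of 0.76 in aged IgG2a against young mice and -0.60 with aPD1ab against IgG2a. The 14 standard 20S subunits have medians of 0.18 and 0.35 in the same order. The first of these turns to -0.23 with library totals alone.

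Marker genes of some leukocytes moved with the members. With age, edgeR called higher 8 of 10 macrophage markers, 2 of 6 pan-leukocyte markers and 3 of 9 T cell markers. It also called higher 2 of 6 B and plasma cell markers and 1 of 3 neutrophil markers, and it called lower 7 of 7 proximal tubule markers. Of 8 endothelial markers it called 5 lower, and of 6 mesangial and mural markers 3 lower, with 0 higher in both lists. Of 6 loop and distal tubule markers it called 1 higher and 0 lower. Over all genes tested, 9.05% were called higher and 8.38% lower. Dendritic cell markers were mixed, with 0 of 5 called higher, 1 called lower, 3 below 0 and a median log2 fold change of -0.61. Their sum was 315 to 352 CPM in aged IgG2a libraries 2 to 4 and 92.1 CPM in library 1. It reached at most 256 CPM in young and 182 CPM in aged aPD1ab libraries. Most of the sum in aged IgG2a libraries 2 to 4 was Itgax, at 251 to 292 CPM. With library totals alone, 5 of the macrophage, 0 of the pan-leukocyte and 2 of the T cell markers were called higher and 7 of the 7 proximal tubule markers lower. Under that setting 2.07% of all genes were called higher, and 3380 of 15953 were called lower. Without aged IgG2a library 1, 9 of the macrophage, 6 of the pan-leukocyte and 8 of the T cell markers were called higher. The share of all genes called higher was then 22.1%. The summed macrophage markers were at 1917 to 3514 CPM in young, 3028 to 8959.5 CPM in aged IgG2a and 2258 to 5026 CPM in aged aPD1ab libraries, and no marker was at 0 in a whole group. The summed pan-leukocyte markers were at 850.4 to 1468, 885 to 2675 and 751 to 1531 CPM, the T cell markers at 13.4 to 25.8, 20.9 to 57.3 and 18.0 to 31.7 CPM, the B and plasma cell markers at 87.5 to 194, 340.2 to 989 and 54.4 to 587 CPM, the dendritic cell markers at 148 to 256, 92.1 to 352 and 70.5 to 182 CPM, and the 10 members at 1642 to 3036, 2249 to 6056 and 2559 to 3362 CPM in the same order. Ptprc, the leukocyte antigen CD45, was at 376, 432, 289, 279.6 and 376 CPM in young, 226, 585, 545 and 687 CPM in aged IgG2a and 326, 174, 305 and 222 CPM in aged aPD1ab libraries. Aged IgG2a libraries 2 to 4 held the most Ptprc, as they held the most of the members.

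The same libraries held the least of Lrp2, the endocytic receptor megalin of the proximal tubule, which was at 496, 82.0, 139.5 and 110.2 CPM in aged IgG2a libraries 1 to 4, 717 to 1117 CPM in the young and 368 to 1363 CPM in the aged aPD1ab libraries. Between the aged groups, 10 of 10 macrophage markers were below 0 and 7 of 7 proximal tubule markers were above 0, with 0 called in both lists. At an unadjusted p under 0.05, 6 of the former were lower and 5 of the latter higher. Of all genes, 12.2% were lower and 15.7% higher at that level. Without aged IgG2a library 1, 10 of the 10 macrophage markers were called lower with aPD1ab and 6 of the 7 proximal tubule markers higher. Of all genes, 13.2% were then called lower and 17.1% higher. The part of these cell types in the levels of the members was not tested.

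**Figure D5:**
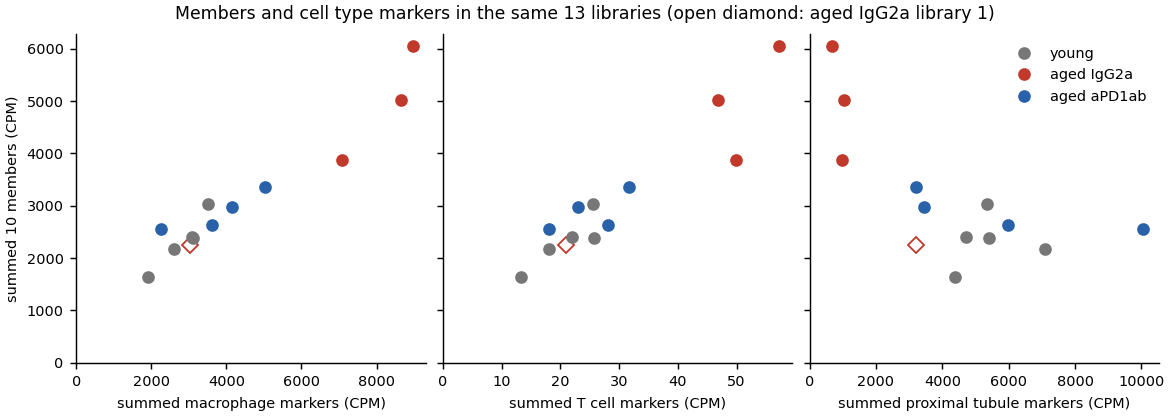
Summed CPM of the 10 members (vertical) against the summed CPM of macrophage, T cell and proximal tubule markers (horizontal) in the same 13 libraries, with linear axes from 0 and an open diamond for aged IgG2a library 1. Aged IgG2a libraries 2 to 4 are highest for the members, for macrophage and for T cell markers and lowest for proximal tubule markers.

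Levels were compared between genes per kilobase, and part of the order depended on the length used. Per kilobase of merged exons, B2m stood highest in young mice at 659 ± 124 CPM per kb, followed by H2-D1 at 289 ± 59.4 and H2-K1 at 219 ± 52.6 (SD, n = 5). Per kilobase of the longest coding transcript, H2-K1 was above H2-D1, at 397 ± 95.5 and 355 ± 72.9 CPM per kb, which differed by less than 1 SD. Tapbp was the fourth by both lengths, at 32.2 ± 5.45 and 40.3 ± 6.82 CPM per kb. Nlrc5 was the lowest of the 10 by both lengths in each of the 3 groups, at 6.28 ± 2.38 CPM per kb of merged exons in young, 8.07 ± 3.02 in aged IgG2a and 4.22 ± 0.466 in aged aPD1ab mice (SD, n = 5, 4 and 4). Of the other 5, 4 changed places in young mice and Tap1 did not. Psmb9 was at 7.51 ± 2.14 per kb of merged exons, below Psmb8, Psmb10 and Tap2, and at 20.3 ± 5.79 per kb of transcript, above all 3 and within 1 SD of Psmb8 and Psmb10. By transcript length Tap1 was at 27.7 ± 9.29, Psmb10 at 19.3 ± 3.58, Psmb8 at 19.1 ± 5.03 and Tap2 at 10.1 ± 2.32 CPM per kb, so no order is given among these 5.

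Likeness of pattern over the 13 libraries, each member included in the profile, was measured as the root mean square difference between the log2 CPM of a gene, centred over the libraries, and the mean centred profile of the 10 members. That difference was smallest for B2m (0.12), Psmb10 (0.13) and H2-D1 (0.13) and largest for Nlrc5 (0.33). The mean profile was lowest in young library 4 (-0.77) and highest in aged IgG2a library 2 (0.95), and within the young group library 4 was the lowest and library 2 the highest for 10 of the 10 members. Of the 14042 genes ranked, those most like the profile outside the list were Trafd1 (0.12), Daglb (0.13), Coro1b (0.13), Slc12a9 (0.13) and Coro7 (0.14). Trafd1 was at 60.6 ± 10.3 CPM in young, 101 ± 37.0 in aged IgG2a and 64.6 ± 8.68 in aged aPD1ab mice (SD, n = 5, 4 and 4), and its log2 difference with age was 0.82 on TMM-scaled values. Coro1b was at 0.88, Coro7 at 0.82, Daglb at 0.91 and Slc12a9 at 0.68 on the log2 scale with age, and since they were chosen for this pattern no test is given.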

How the data were processed

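The authors deposited raw counts per Ensembl gene, in whole numbers and not normalized; the submitters' processing notes name HISAT2, featureCounts and mm10/GRCm38 with no versions, and strand setting and annotation are not given in the sources used here. Symbols and positions were taken from GENCODE M21. No batch is labelled. Of the 15 columns, 2 matched no group and were not used. Same-group libraries differed beyond counting noise (closest pair, young 1 and 5, mean chi-square 14.0 per gene), so none was a duplicate, and p-values measure the spread between these libraries.

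Members and lists were chosen with earlier results of these data known. The 3 comparisons were fitted one at a time with edgeR 4.0.16 in R 4.3.3 (TMM, filterByExpr, robust quasi-likelihood test, Benjamini-Hochberg over all genes tested, adjusted p under 0.05), and the scripts were tested on simulated data. Alternatives were DESeq2 size factors, library totals alone, no filter, DESeq2 1.42.0, limma 3.58.1 voom with sample quality weights, 1 fit of 3 groups, each library left out and a further 2-fold threshold. Log2 ratios per kilobase of merged exons were compared by exact two-sided permutation, with 0.5 added counts or group medians as alternatives. Beside the members, Psmb5, Psmb6, Psmb7, Nphs1, Ptprc and Lrp2, the text names up to 3 genes per pathway list by smallest p with age and the 5 genes most like the members (mean of at least 1 CPM). Further genes are said to be chosen after their values were seen. Motifs were searched on both strands.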

Additional observations from a re-analysis of the deposited data

Results flagged for a closer look

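In 39 groups of 4 or 5 libraries (each member, and each log2 ratio of an immunosubunit to its standard subunit, in each group), 1 library lay apart from the others of its group by Dixon's criterion in 3 cases, and chance flags about 1 in 20 groups. All 3 cases were aged IgG2a library 1. Tap2 was at 31.8 CPM there and at 54.4 to 57.9 CPM in the other 3 libraries. The log2 ratio of Psmb8 to Psmb5 per kilobase of merged exons was -2.40 there and -0.76 to -0.44 in the others. The log2 ratio of Psmb9 to Psmb6 was -2.98 there and -1.29 to -1.05 in the others. The cause was not tested.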

How the results depend on the processing

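The count of members called with age was 5 of 10. It was 0 with library totals alone, 0 without a filter on low counts and 10 with limma voom (24.4% of all genes, beside 9.05% by edgeR), and it ranged from 0 to 9 when 1 library was left out, with 9 only without aged IgG2a library 1. It stayed within 1.5 times of 5 with DESeq2, DESeq2 size factors, the fit of 3 groups and the 2-fold threshold (4). For aPD1ab against IgG2a the count was 0, 1 with DESeq2, 1 with the fit of 3 groups, 10 with limma voom (18.9% of all genes), and 0 to 9 with 1 library left out. For aPD1ab against young it was 0 throughout. Library totals alone moved the median log2 fold change of all genes by -0.42 with age, by 0.25 for aPD1ab against IgG2a and by -0.12 for aPD1ab against young. Under that setting values turned to -0.024 for Nlrc5, -0.25 for Psmb6, -0.044 for Psmb2, -0.080 for Psma7 and -0.19 for Psma6 with age, to 0.027 for Tap2, 0.23 for Psme2 and 0.14 for Rela between the aged groups, and to -0.032 for Trafd1 and -0.0017 for Daglb for aPD1ab against young. With 1 library left out, values near 0 turned sign for H2-Q2 (-0.077 to 0.12), Psme2 (-0.18 to 0.11) and Cd8b1 (-1.09 to 0.11) between the aged groups, and for Tap1 (-0.34 to 0.0038), Psmb9 (-0.25 to 0.14), Pirb (-0.14 to 0.14) and Cd8a (-0.33 to 0.033) for aPD1ab against young. The log2 ratio differences with 1 library left out ranged from 0.93 to 1.58 for Psmb8 over Psmb5, 0.37 to 1.01 for Psmb9 over Psmb6 and 0.62 to 1.16 for Psmb10 over Psmb7 with age, the highest value in each case being that without aged IgG2a library 1. For aPD1ab against young they ranged from -0.32 to 0.048, -0.86 to -0.41 and -0.14 to 0.17, and Psmb9 over Psmb6 without young library 4 had -0.86 (exact permutation p = 0.0286, the smallest possible for 4 against 4). Added counts and group medians kept the direction and the side of 0.05 of the ratio tests in all 3 comparisons. The cause of these changes was not tested. No paired analysis was possible because the columns carry no replicate numbers that the groups share. Depth limits the low genes named, such as Cd8b1, more than the members.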
